A study of Mus musculus with 6 samples.

Results

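Ribosome biogenesis genes and Myc were followed in KMWT1, a mouse glioma cell line, after siRNA against YY1, a DNA-binding protein with zinc fingers that is known both to activate and to repress its targets. The set was a fixed list of 43 gene symbols, Myc and 42 factors that make ribosomes, taken by symbol from tables of 24982 genes each. All 43 symbols were found, and all 43 passed the filter on low counts that left 12148 genes for testing. YY1 siRNA samples 4, 5 and 6 received a pool of siRNAs against YY1, and control siRNA samples 1, 2 and 3 received a control siRNA. Every sample was taken 48 hours after transfection of the same line, grown in serum, and no genotype difference between the groups is labelled. The samples are one cell line, and the labels do not say whether the samples were cultured separately, so the p-values reflect only how far these samples spread, and that spread may be technical.

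Ribosomes are built in the nucleolus. RNA polymerase I makes a long precursor RNA, small nucleolar RNPs guide its chemical modification, and assembly factors fold and cut it into the cores of the small (40S) and large (60S) subunits. Myc, a transcription factor that binds E-box DNA with its partner Max, is known to drive many of these genes, and rapidly growing tumour cells, gliomas included, use the pathway heavily.

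Counts in genes ranged from 15738457 to 19210104 in YY1 siRNA samples and from 18680762 to 20644057 in control siRNA samples. YY1 siRNA sample 6 was the shallowest and stood apart on the first principal component, which held 44.2% of the variance, and YY1 siRNA sample 4 stood apart on the second (18.7%). Samples of one group differed by more than sampling noise in every pair, with a chi-square per degree of freedom between 3.07 and 32.2. The glioma and neural progenitor markers were present in part: 6 of 10 averaged at least 10 CPM (counts scaled to library size) and 4 were under 1 CPM, 3 of these at 0, Olig2 among them. Their summed level spanned 11653 to 14250 CPM in YY1 siRNA samples and 12543 to 14229 CPM in control siRNA samples. Markers of neurons (5 of 5), oligodendrocytes (3 of 4), microglia and macrophages (6 of 8), endothelium (4 of 5) and fibroblasts and pericytes (2 of 6) were under 1 CPM. Of the fibroblast and pericyte markers 4 of 6 reached 10 CPM, with a sum of 804 to 1024 CPM in YY1 siRNA samples and 954 to 1114 CPM in control siRNA samples. The microglia and macrophage markers summed to 68.0 to 77.7 CPM in YY1 siRNA samples and 77.7 to 80.7 CPM in control siRNA samples. The endothelial ones summed to 43.2 to 51.3 CPM in YY1 siRNA samples and 50.6 to 57.8 CPM in control siRNA samples. The part of these markers in the results was not tested. The targeted gene, Yy1, was at 81.2, 77.6 and 78.6 CPM in YY1 siRNA samples 4, 5 and 6, against 127, 128 and 126 CPM in control siRNA samples 1, 2 and 3. It fell to 62.3% of control (95% interval 56.5% to 68.6%, edgeR quasi-likelihood test, Benjamini-Hochberg adjusted p 0.00154).

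None of the 43 genes passed the adjusted threshold, and most had slightly lower fitted levels with YY1 siRNA. In edgeR's quasi-likelihood test over all genes 0 of 43 had an adjusted p under 0.05 (smallest 0.248), and DESeq2 and limma-voom also called 0. Of all tested genes, 0.00823% were called, which is Yy1 alone. At an unadjusted p under 0.05, 6 of the 43 were lower (14.0%), against 5.46% of all tested genes, and 0 were higher, against 5.38%. Fitted log2 fold changes, given throughout as YY1 siRNA minus control siRNA, were below 0 for 34 of 43 (79.1%), against 49.8% of all tested genes. Their median was -0.11, with quartiles of -0.14 and -0.037, while the median over all tested genes was 0.00070 with quartiles of -0.088 and 0.11. For 42 of 43 genes, all but Rrp12, the 95% interval stayed inside 1.5-fold up and down, which held for 82.2% of all tested genes. These counts describe the list and carry no test of it, since the list was drawn up with results of these data known.

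**Figure D1:**
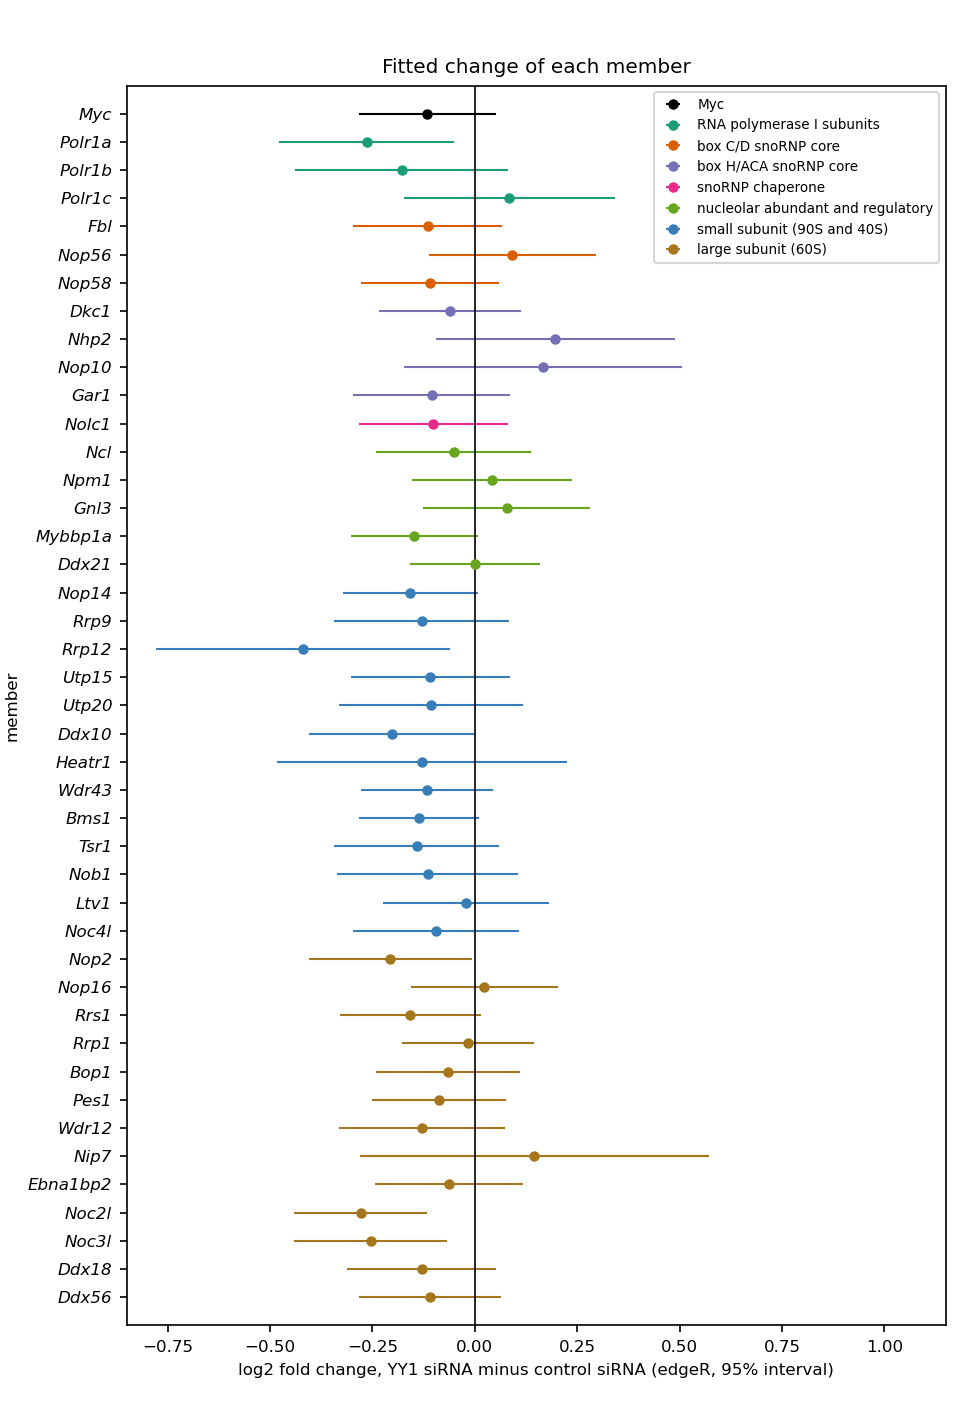
Fitted log2 fold change of each of the 43 genes (YY1 siRNA minus control siRNA, points) with its 95% interval from edgeR (lines), coloured by role. The points lie between -0.42 for Rrp12 and 0.20 for Nhp2, with 34 of 43 left of 0.

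In the median level of the 42 biogenesis genes the libraries of the groups did not overlap. This level is the median over genes of log2(CPM + 0.5), each gene relative to its mean over the 6 libraries. It was -0.022, -0.032 and -0.11 in YY1 siRNA samples 4, 5 and 6, against 0.077, 0.015 and 0.069 in control siRNA samples 1, 2 and 3. YY1 siRNA sample 6 was the lowest, and the groups came closest between YY1 siRNA sample 4 and control siRNA sample 2. Over all tested genes the same level stayed between -0.010 and 0.010 in every library, where normalisation and centring hold it near 0. Small subunit factors outside the list did not overlap either, at -0.033, -0.029 and -0.012 in YY1 siRNA samples 4, 5 and 6. Their control siRNA samples 1, 2 and 3 were at 0.029, 0.018 and 0.041. Large subunit factors outside the list had -0.015, -0.023 and -0.035, against 0.0055, 0.00079 and 0.048, again with no overlap. The polymerase I, exosome and Myc lists outside the 43 genes overlapped. Gene by gene, 10 of 43 (23.3%) had all 3 YY1 siRNA samples below all 3 control siRNA samples, against 8.91% of all tested genes, and 0 had them all above, against 7.36%.

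YY1 siRNA sample 6 held the extremes of the list in both directions. It was the lowest of the 6 libraries for 19 of the 43 genes and the highest for 9, while control siRNA samples 1 and 3 were the highest for 14 and 11. Without YY1 siRNA sample 6, 40 of 43 genes had a fitted change below 0. The median was -0.085, against -0.0025 over all genes tested then. Of the 43, 3 were lower at an unadjusted p under 0.05 (5.03% of all genes tested then). Without YY1 siRNA sample 4 the number lower was 10 (8.42% of all genes tested then), and the median was -0.13, and without YY1 siRNA sample 5 it was 9 (6.03%), with a median of -0.12. Without control siRNA sample 1 it was 1 (2.83%), Noc2l, with a median of -0.10, and without control siRNA sample 3 it was 3 (4.81%), with 1 gene higher. Of all genes tested without control siRNA sample 3, 789 of 12230 were higher at such a p. The share of counts falling in no gene was 7.87%, 10.7% and 11.3% in YY1 siRNA samples 4, 5 and 6, against 7.99%, 8.64% and 9.03% in control siRNA samples 1, 2 and 3. The median level of 4 tested nuclear-retained RNAs of 6 listed, among them Malat1 and Neat1, was -0.48, 0.27 and 0.37 in YY1 siRNA samples 4, 5 and 6, against -0.18, -0.18 and 0.14 in control siRNA samples 1, 2 and 3. With the no-gene share as a covariate the median of the 43 genes was -0.074, against 0.0016 over all genes in that fit. Of the 43, 36 were below 0, and 7 were lower at an unadjusted p under 0.05 (4.82% of all genes in that fit). The part of RNA handling in these differences was not tested.

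**Figure D2:**
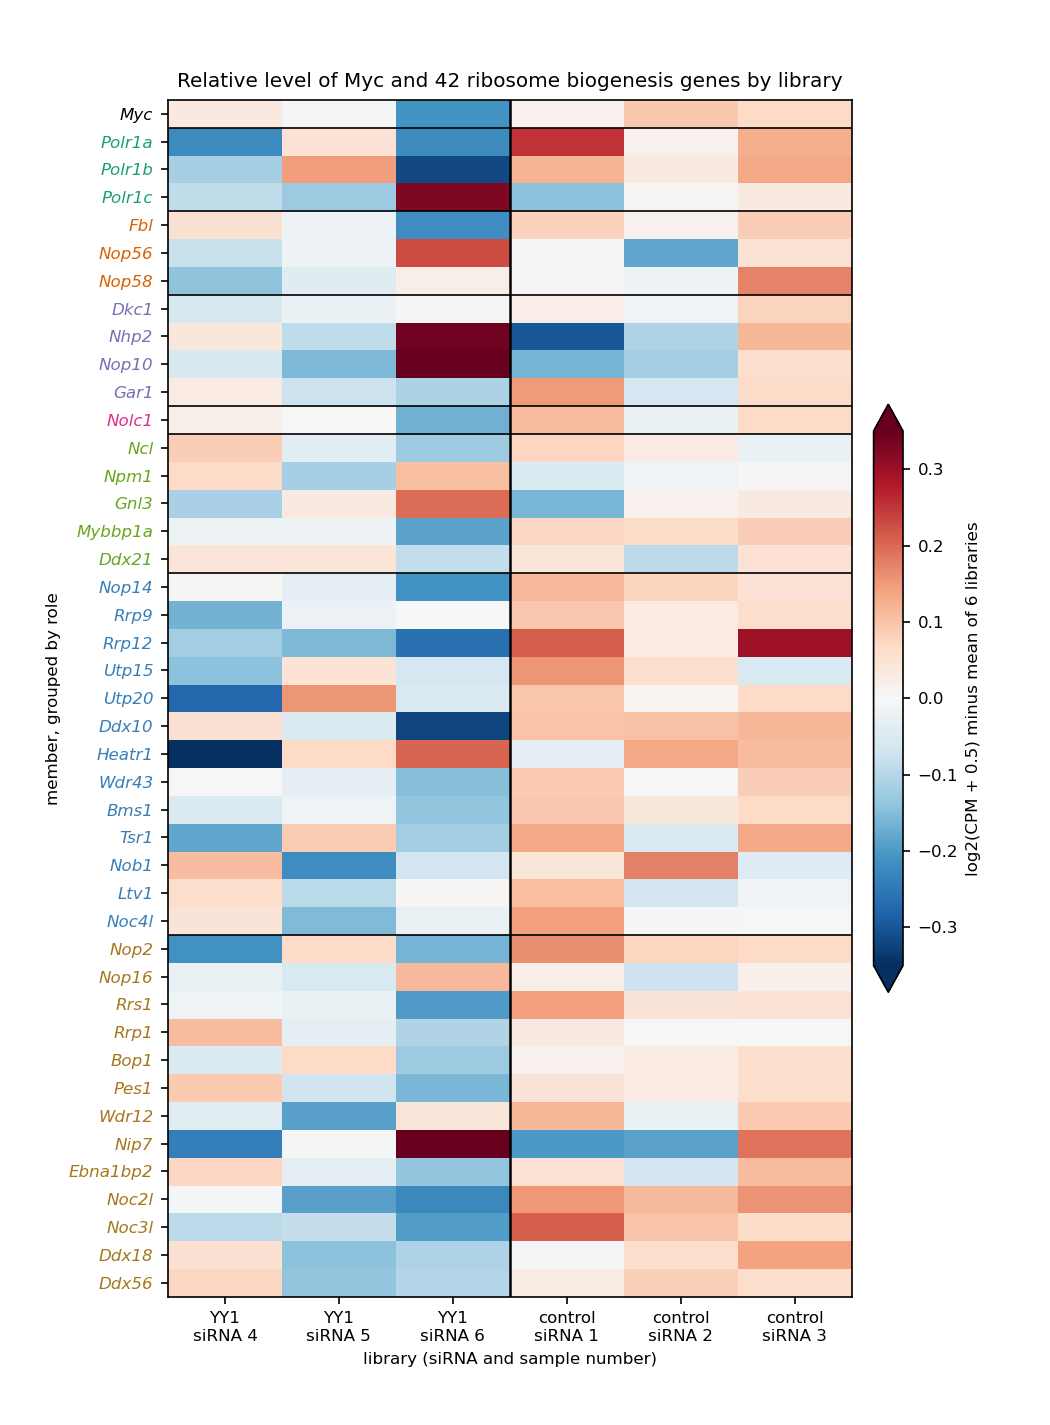
Level of Myc and the 42 biogenesis genes (rows, grouped by role) in each library (columns), as log2(CPM + 0.5) minus the gene's mean over the 6 libraries. YY1 siRNA sample 6 is the lowest library for 19 genes and the highest for 9, among them Nhp2, Nop10, Nip7 and Polr1c.

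Myc did not pass the test. It maps to chromosome 15, bases 61985391 to 61990374, plus strand (mm10, ENSMUSG00000022346.15), and no other annotated gene overlaps it. Its level was 81.7, 79.5 and 68.9 CPM in YY1 siRNA samples 4, 5 and 6, against 80.6, 85.1 and 83.8 CPM in control siRNA samples 1, 2 and 3. YY1 siRNA sample 6 was the low one, and YY1 siRNA sample 4 lay above control siRNA sample 1, so the groups overlapped. The log2 fold change was -0.12 (SE 0.077, 95% interval -0.28 to 0.052, edgeR adjusted p 0.575), a level 92.3% of control with an interval from 82.2% to 104%. Without YY1 siRNA sample 6 it was -0.052 (edgeR adjusted p 0.915).

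The partners and relatives of Myc gave 0 of 20 tested genes past the adjusted threshold. Fitted changes were evenly split, 10 below and 10 above 0, with a median of 0.0022. Max, the obligate partner, averaged 60.5 ± 0.783 CPM in YY1 siRNA samples and 59.1 ± 1.57 CPM in control siRNA samples (SD, n = 3 each). At an unadjusted p under 0.05, 0 of the 20 were lower and 2 were higher, against 5.46% and 5.38% of all tested genes. The 2 were Mxd3, a Max partner that opposes Myc, and Mlx, a relative of Max. Mxd3 was at 13.9, 13.5 and 16.6 CPM in YY1 siRNA samples 4, 5 and 6, against 9.09, 10.8 and 13 CPM in control siRNA samples 1, 2 and 3 (log2 fold change 0.42, edgeR adjusted p 0.306). Mlx averaged 43.9 ± 6.24 CPM in YY1 siRNA samples and 35.5 ± 1.46 CPM in control siRNA samples (0.30, edgeR adjusted p 0.306). In both genes the YY1 siRNA samples were the 3 highest, which picking them by p makes likely. That held for 2 of the 20, against 7.36% of all tested genes. In 0 of the 20 they were the 3 lowest, against 8.91%. Mycn was listed at 0.0531 to 0.106 CPM and was not tested.

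Myc targets outside ribosome biogenesis were also evenly split, with 10 of 20 below 0 and a median of 0.0050. Odc1, the first enzyme of polyamine synthesis and a textbook Myc target, stood at 369 ± 21.3 CPM in YY1 siRNA samples and 366 ± 3.70 CPM in control siRNA samples. Of these 20, 0 passed the adjusted threshold. At an unadjusted p under 0.05, 2 were lower and 0 higher, against 5.46% and 5.38% of all tested genes. Apex1, a base excision repair nuclease, averaged 19.2 ± 2.34 CPM in YY1 siRNA samples and 23.3 ± 0.367 CPM in control siRNA samples (edgeR adjusted p 0.346). Tfap4, a transcription factor, averaged 9.71 ± 0.635 CPM in YY1 siRNA samples and 11.8 ± 0.499 CPM in control siRNA samples (edgeR adjusted p 0.362).

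**Figure D3:**
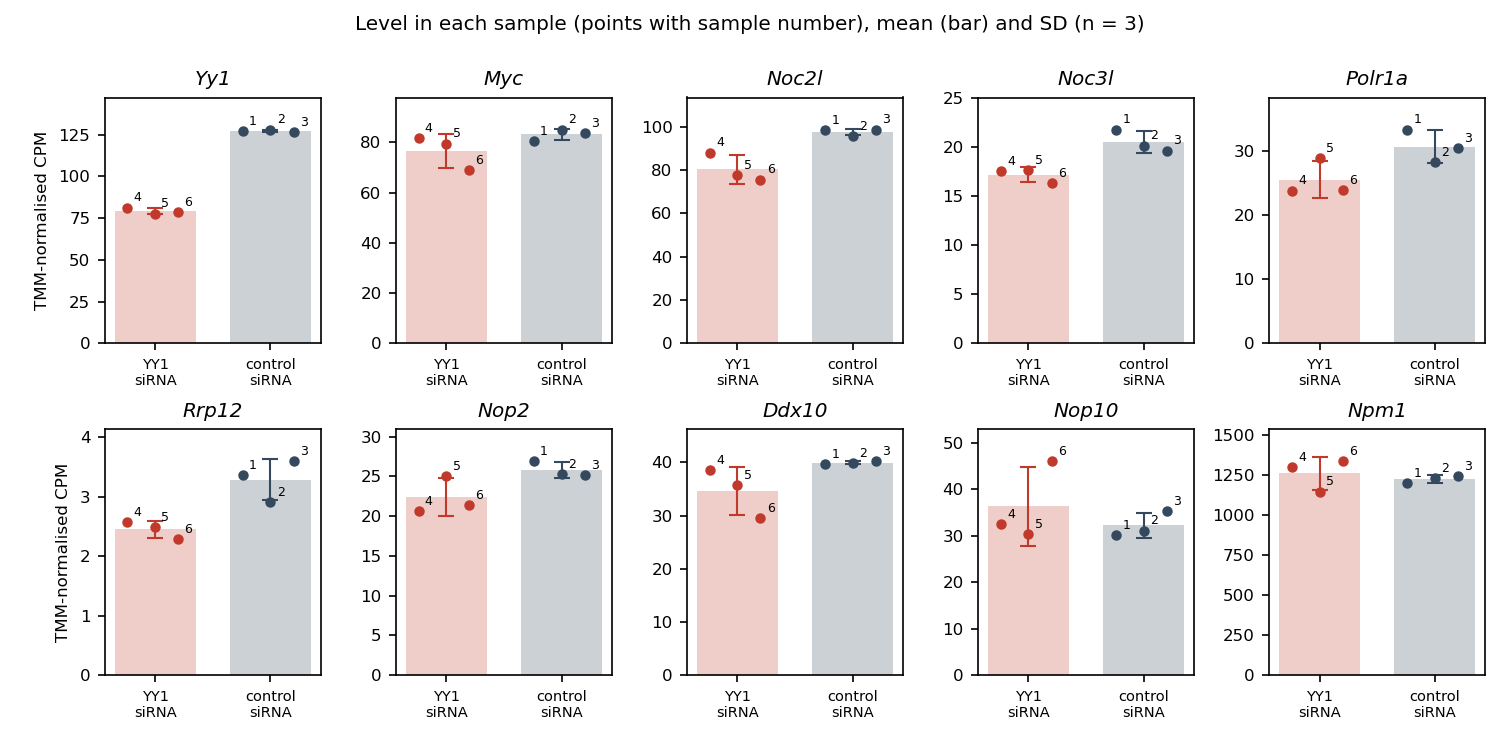
TMM-normalised CPM of Yy1, Myc and 8 biogenesis genes in each sample (points, with sample numbers), with the group mean (bar) and SD (line, n = 3), YY1 siRNA left of control siRNA. Yy1, Noc2l, Noc3l, Rrp12, Nop2 and Ddx10 have every YY1 siRNA sample below every control siRNA sample, while Myc, Polr1a, Nop10 and Npm1 overlap. Noc2l, Noc3l, Rrp12, Nop2 and Ddx10 were picked by p, which makes this likely. Of all tested genes, 8.91% have every YY1 siRNA sample below.

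None of the 3 RNA polymerase I subunits passed the test, and their fitted changes moved with single libraries. Polr1a, the largest subunit, was at 23.9, 28.9 and 23.9 CPM in YY1 siRNA samples 4, 5 and 6, against 33.4, 28.2 and 30.5 CPM in control siRNA samples 1, 2 and 3. YY1 siRNA sample 5 lay above control siRNA sample 2, so the groups overlapped. The log2 fold change was -0.26 (SE 0.099, unadjusted p 0.0195, edgeR adjusted p 0.379), and the unadjusted p went up to 0.0976 without control siRNA sample 1. Polr1a overlaps an antisense gene (Gm26628) and a pseudogene on the other strand, and the counting is not known to use strand. Polr1b, the second subunit, was at 10.6, 12.9 and 9.21 CPM in YY1 siRNA samples, against 12.6, 11.8 and 12.8 CPM in control siRNA samples (log2 fold change -0.18, edgeR adjusted p 0.576). Its value was -0.085 without YY1 siRNA sample 6 and -0.32 without YY1 siRNA sample 5 (unadjusted p 0.0211, edgeR adjusted p 0.387 for the second). Polr1c, a subunit shared with RNA polymerase III, was at 62.5, 60.9 and 83.5 CPM in YY1 siRNA samples 4, 5 and 6, against 60.2, 66.7 and 67.9 CPM in control siRNA samples 1, 2 and 3. Its positive log2 fold change of 0.084 came with 1 high library and was -0.080 without YY1 siRNA sample 6.

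Of 13 further genes of the polymerase I machinery, 0 passed the adjusted threshold, and the median log2 fold change was -0.021. At an unadjusted p under 0.05, 2 were lower and 1 higher, against 5.46% and 5.38% of all tested genes. Cd3eap, a polymerase I subunit, averaged 10.4 ± 0.690 CPM in YY1 siRNA samples and 13.4 ± 1.22 CPM in control siRNA samples (log2 fold change -0.36, edgeR adjusted p 0.265). Tcof1, which encodes treacle, a nucleolar factor needed for rRNA gene transcription, averaged 31.2 ± 3.52 CPM in YY1 siRNA samples and 38.4 ± 2.20 CPM in control siRNA samples (log2 fold change -0.30, edgeR adjusted p 0.289). The groups overlapped in neither gene, which picking them by p makes likely. Of all 13, 3 had every YY1 siRNA sample below every control siRNA sample, against 8.91% of all tested genes. In 0 every YY1 siRNA sample was above, against 7.36%. Polr1d, shared with RNA polymerase III like Polr1c, averaged 143 ± 21.6 CPM in YY1 siRNA samples and 122 ± 6.59 CPM in control siRNA samples (log2 fold change 0.23, edgeR adjusted p 0.443), and YY1 siRNA sample 6 was again the highest at 167 CPM.

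None of the small nucleolar RNP proteins passed the test. Box C/D RNPs carry the rRNA 2′-O-methyltransferase fibrillarin, and box H/ACA RNPs carry the pseudouridine synthase dyskerin. In the box C/D core, Fbl, which encodes fibrillarin, had 36.7, 34.8 and 30.3 CPM in YY1 siRNA samples 4, 5 and 6, against 37.3, 35.7 and 37.5 CPM in control siRNA samples 1, 2 and 3 (log2 fold change -0.12). Its scaffold Nop58 had a log2 fold change of -0.11, while the other scaffold, Nop56, had 44.7, 46.6 and 55.4 CPM in YY1 siRNA samples against 47.0, 41.5 and 48.9 CPM in control siRNA samples (0.091, and -0.013 without YY1 siRNA sample 6).

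The box H/ACA core held the members with the highest fitted changes. Nhp2, an RNA-binding subunit, had 30.3, 27.7 and 37.5 CPM in YY1 siRNA samples 4, 5 and 6, against 23.9, 27.3 and 32.0 CPM in control siRNA samples 1, 2 and 3 (log2 fold change 0.20, SE 0.13, edgeR adjusted p 0.579). Nop10, the smallest subunit, had 32.5, 30.3 and 46.0 CPM in YY1 siRNA samples and 30.2, 31.0 and 35.3 CPM in control siRNA samples (0.17, SE 0.15, edgeR adjusted p 0.684). Both overlapped between groups, both were highest in YY1 siRNA sample 6, and without it the values were 0.061 for Nhp2 and -0.041 for Nop10. Without control siRNA sample 3 the Nhp2 value was 0.31 (unadjusted p 0.0346, edgeR adjusted p 0.419). The enzyme Dkc1 and the subunit Gar1 had fitted changes of -0.060 and -0.11. Nolc1, a chaperone that carries both kinds of RNP, had 24.9 ± 1.75 CPM in YY1 siRNA samples and 26.8 ± 1.26 CPM in control siRNA samples.

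The abundant nucleolar proteins showed no common direction. Npm1, nucleophosmin, a histone and ribosome chaperone, was the most abundant member per length (472 CPM per kilobase of exon in YY1 siRNA samples and 459 in control siRNA samples). It stood at 1298, 1144 and 1334 CPM in YY1 siRNA samples 4, 5 and 6, against 1198, 1230 and 1242 CPM in control siRNA samples 1, 2 and 3, with a log2 fold change of 0.041 (95% interval -0.15 to 0.24). Reads of its processed pseudogenes could not be told apart here, so its level is uncertain. Ncl, nucleolin, which coats nascent rRNA, averaged 886 ± 65.7 CPM in YY1 siRNA samples and 918 ± 30.7 CPM in control siRNA samples.

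Mybbp1a, a nucleolar Myb-binding protein, differed from these in that the groups did not overlap. It was at 176, 176 and 156 CPM in YY1 siRNA samples 4, 5 and 6, against 188, 186 and 189 CPM in control siRNA samples 1, 2 and 3 (log2 fold change -0.15, SE 0.071, unadjusted p 0.0596, edgeR adjusted p 0.473). Its locus overlaps Spns2 on the other strand, which averaged 40.7 ± 2.21 CPM in YY1 siRNA samples and 45.5 ± 2.61 CPM in control siRNA samples. Ddx21, an RNA helicase of polymerase I transcription and rRNA processing, had 64.2 ± 3.34 CPM in YY1 siRNA samples and 64.3 ± 3.55 CPM in control siRNA samples, a log2 fold change of 0.00054 with an interval of -0.16 to 0.16. Gnl3, nucleostemin, a nucleolar GTPase of dividing cells, had a fitted change of 0.077.

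All 13 small subunit factors had a fitted change below 0, against 49.8% of all tested genes. This was the only role with more than 1 gene of which that was so, with a median log2 fold change of -0.13. Their median levels were -0.050, -0.028 and -0.066 in YY1 siRNA samples 4, 5 and 6. Control siRNA samples 1, 2 and 3 were at 0.099, 0.030 and 0.069, with no overlap, as in the large subunit role below. None of the 13 passed the adjusted threshold (smallest adjusted p 0.401). Lower at an unadjusted p under 0.05 were 2 and higher 0, against 5.46% and 5.38% of all tested genes. Every YY1 siRNA sample was below every control siRNA sample in 5, against 8.91% of all tested genes. They were all above in 0, against 7.36%. Rrp12, a factor of 40S maturation and export, had the lowest fitted change of all 43 genes. It was a weakly counted gene, at 2.57, 2.5 and 2.28 CPM in YY1 siRNA samples 4, 5 and 6, against 3.37, 2.91 and 3.60 CPM in control siRNA samples 1, 2 and 3. In reads this was 49, 47 and 35 in YY1 siRNA samples, against 70, 56 and 68 in control siRNA samples. The log2 fold change was -0.42 (SE 0.17, 95% interval -0.78 to -0.061, unadjusted p 0.0254, edgeR adjusted p 0.401), and with DESeq2 the unadjusted p was 0.111.

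Ddx10, a helicase that frees a snoRNA from the early small subunit particle, was even across control siRNA samples and uneven across YY1 siRNA samples. It had 38.5, 35.7 and 29.6 CPM in YY1 siRNA samples 4, 5 and 6, against 39.7, 39.9 and 40.2 CPM in control siRNA samples 1, 2 and 3 (log2 fold change -0.20, unadjusted p 0.0475, edgeR adjusted p 0.458). Without YY1 siRNA sample 6 the value was -0.11 and the unadjusted p 0.160. Nop14, the most abundant small subunit factor per length, had 49.6, 48.3 and 42.6 CPM in YY1 siRNA samples 4, 5 and 6, against 53.5, 52.2 and 51.2 CPM in control siRNA samples 1, 2 and 3 (-0.16, edgeR adjusted p 0.473). Its groups did not overlap, nor did those of the GTPase gene Bms1 (65.3 ± 2.83 CPM in YY1 siRNA samples, 71.7 ± 1.41 CPM in control siRNA samples) or of Rrp9, a U3 snoRNP protein gene (10.4 ± 0.674 CPM in YY1 siRNA samples, 11.3 ± 0.267 CPM in control siRNA samples). The endonuclease gene Nob1, which encodes the enzyme that makes the final cut of 18S rRNA, had a fitted change of -0.12, and Ltv1, a late 40S factor, had -0.022. Heatr1, a scaffold of the early particle, was the least even: 6.76, 10.2 and 11.2 CPM in YY1 siRNA samples 4, 5 and 6, against 9.48, 10.7 and 10.5 CPM in control siRNA samples 1, 2 and 3.

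Of 40 small subunit factors tested outside the list, 26 (65%) had a fitted change below 0, against 49.8% of all tested genes. The median log2 fold change was -0.059, and none passed the adjusted threshold. At an unadjusted p under 0.05, 9 were lower and 0 higher, against 5.46% and 5.38% of all tested genes. The 4 with the smallest p were Pwp2 (17.6 ± 0.797 CPM in YY1 siRNA samples, 21.8 ± 1.5 CPM in control siRNA samples, log2 fold change -0.31), Nol11 (-0.27), Wdr46 (-0.31) and Wdr36 (-0.16), with edgeR adjusted p from 0.261 to 0.397. All encode proteins of the early small subunit particle. None of these 4 had overlapping groups, which picking them by smallest p makes likely. Of all 40, 10 had every YY1 siRNA sample below every control siRNA sample, against 8.91% of all tested genes. In 2 every YY1 siRNA sample was above, against 7.36%.

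Of the 13 large subunit factors, 11 had a fitted change below 0, against 49.8% of all tested genes, with a median log2 fold change of -0.11. Of these factors, 3 were lower and 0 higher at an unadjusted p under 0.05, against 5.46% and 5.38% of all tested genes. Every YY1 siRNA sample was below every control siRNA sample in 4, against 8.91% of all tested genes. They were all above in 0, against 7.36%. Their role had median levels of -0.016, -0.053 and -0.13 in YY1 siRNA samples 4, 5 and 6. Control siRNA samples 1, 2 and 3 were at 0.046, 0.030 and 0.063, so this role did not overlap either. Noc2l, a nucleolar protein that pairs with Noc3l in early 60S particles and is also known as an inhibitor of histone acetyltransferases, had the smallest p of all 43 genes. It was at 88.1, 77.6 and 75.7 CPM in YY1 siRNA samples 4, 5 and 6, against 98.4, 95.9 and 98.8 CPM in control siRNA samples 1, 2 and 3. The groups did not overlap, which picking Noc2l by p makes likely, and YY1 siRNA sample 4 was the nearest to the controls. The log2 fold change was -0.28 (SE 0.074), a level 82.4% of control (95% interval 73.7% to 92.2%), with an unadjusted p of 0.00261 and an edgeR adjusted p of 0.248. Its unadjusted p was under 0.05 without each sample in turn (highest 0.0127) and under all 9 other settings (highest 0.0112), while its lowest adjusted p was 0.0556, without YY1 siRNA sample 4. These refits reuse the same samples, and Noc2l was picked for its smallest p, so they are not independent support. Noc2l maps to chromosome 4, bases 156236010 to 156247616, plus strand (mm10), and overlaps Samd11 on the other strand, which was at 0 to 0.159 CPM in YY1 siRNA samples and 0.0519 to 0.265 CPM in control siRNA samples.

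Noc3l, the partner of Noc2l, was at 17.6, 17.7 and 16.3 CPM in YY1 siRNA samples 4, 5 and 6, against 21.8, 20.1 and 19.6 CPM in control siRNA samples 1, 2 and 3, with no overlap. The log2 fold change was -0.25 (SE 0.086, unadjusted p 0.0116, edgeR adjusted p 0.340), and without control siRNA sample 1 the unadjusted p was 0.0677. Noc4l, their relative in the small subunit pathway, had 17.0, 14.8 and 16.2 CPM in YY1 siRNA samples 4, 5 and 6, against 18.3, 16.4 and 16.5 CPM in control siRNA samples 1, 2 and 3, and overlapped. Nop2, a methyltransferase of 28S rRNA, was at 20.6, 25.1 and 21.3 CPM in YY1 siRNA samples 4, 5 and 6, against 26.9, 25.3 and 25.2 CPM in control siRNA samples 1, 2 and 3. The groups did not overlap, but YY1 siRNA sample 5 lay just under the lowest control (log2 fold change -0.21, unadjusted p 0.0434, edgeR adjusted p 0.446). Without YY1 siRNA sample 4 its unadjusted p was 0.151. Noc3l and Nop2 were both picked by p, which makes groups without overlap likely. Rrs1, which brings the 5S RNP into the 60S particle, had 33.6 ± 2.38 CPM in YY1 siRNA samples and 37.5 ± 1.46 CPM in control siRNA samples, again with no overlap.

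The 3 proteins of the PeBoW complex, which is needed to process the large subunit rRNA, had fitted changes of -0.088 (Pes1), -0.066 (Bop1) and -0.13 (Wdr12), each with overlapping groups. The helicase genes Ddx18 and Ddx56 had -0.13 and -0.11, also with overlap. Rrp1, the most abundant large subunit factor per length, had 234 ± 17.7 CPM in YY1 siRNA samples and 237 ± 3.23 CPM in control siRNA samples. Nip7, a factor of pre-rRNA processing, was at 15.9, 18.9 and 25.9 CPM in YY1 siRNA samples 4, 5 and 6, against 16.4, 16.6 and 21.6 CPM in control siRNA samples 1, 2 and 3. Its log2 fold change was 0.15, and -0.070 without YY1 siRNA sample 6.

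Outside the list, 28 of 39 large subunit factors (71.8%) had a fitted change below 0, against 49.8% of all tested genes. The median log2 fold change was -0.056, and 0 passed the adjusted threshold. At an unadjusted p under 0.05, 4 were lower and 0 higher, against 5.46% and 5.38% of all tested genes. Nop53, a factor that recruits the RNA exosome to the 60S particle, was at 176, 144 and 133 CPM in YY1 siRNA samples 4, 5 and 6, against 196, 194 and 180 CPM in control siRNA samples 1, 2 and 3 (-0.33, edgeR adjusted p 0.265). Ddx54 (-0.23), Ddx24 (-0.17) and Nle1 (-0.25) were the others. The groups overlapped in none of these 4 genes, which picking them by p makes likely. Of all 39, 9 had every YY1 siRNA sample below every control siRNA sample, against 8.91% of all tested genes. In 1 every YY1 siRNA sample was above, against 7.36%. Of 14 exosome and nuclease genes, 10 (71.4%) were below 0, against 49.8% of all tested genes, with a median of -0.046. None passed the adjusted threshold. At an unadjusted p under 0.05, 0 were lower and 1 higher, against 5.46% and 5.38% of all tested genes. The higher one was Mphosph6, an exosome cofactor (44.1 ± 4.80 CPM in YY1 siRNA samples, 37.5 ± 2.53 CPM in control siRNA samples, edgeR adjusted p 0.394).

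**Figure D4:**
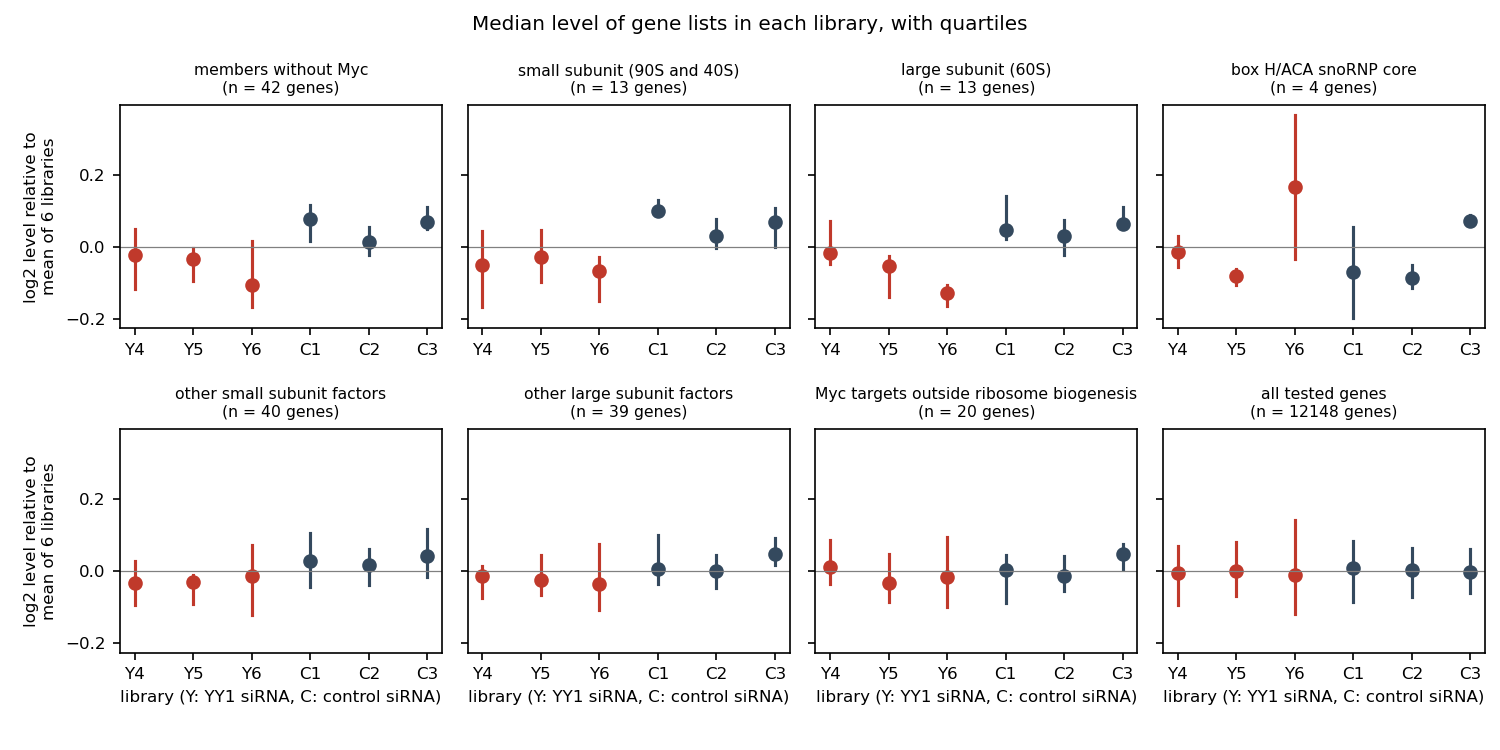
Median level of 8 gene lists in each library (points), with the quartiles over genes (lines), as log2(CPM + 0.5) relative to the mean of the 6 libraries. Libraries are YY1 siRNA samples (Y4 to Y6) left of control siRNA samples (C1 to C3). For the 42 biogenesis genes the YY1 siRNA points run from -0.11 to -0.022 and the control siRNA points from 0.015 to 0.077. The small and large subunit lists, within and outside the 42, do not overlap either. The box H/ACA core, the Myc targets outside ribosome biogenesis and all tested genes overlap.

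The 9 genes with a fitted change above 0 were Polr1c, Nop56, Nhp2, Nop10, Npm1, Gnl3, Ddx21, Nop16 and Nip7. All but Ddx21 had their highest level in YY1 siRNA sample 6, and none had groups that did not overlap. Their merged exons had a median length of 2.67 kb, against 3.695 kb for the 34 genes below 0. When the 43 genes were divided at the median exon length, the 21 shorter and 22 longer genes had the same median difference from the control mean in YY1 siRNA sample 6, -0.16 on the log2 scale. In YY1 siRNA sample 4 the medians were -0.024 for shorter and -0.097 for longer genes, and in YY1 siRNA sample 5 they were -0.096 and -0.066. In YY1 siRNA sample 6, 6 of 21 shorter and 3 of 22 longer genes lay above the control mean. These counts were 7 and 4 in YY1 siRNA sample 4, and 3 and 6 in YY1 siRNA sample 5. With offsets for length and GC content 36 of 43 genes were below 0. The median was -0.098, against -0.00058 over all genes in that fit. Of the 43, 7 were lower at an unadjusted p under 0.05 (6.47% of all genes in that fit). In that fit the log2 fold change was 0.013 for Nop10 and 0.11 for Nhp2, the shortest of the genes.

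The promoters of the genes were searched for the letters of the sites that Myc and YY1 bind, from 250 bases before to 50 after the start (RefSeq, GRCm38.p6), and 37 of the 43 genes matched a promoter, all but Myc, Fbl, Npm1, Rrp12, Rrs1 and Bop1. The E-box CACGTG, which reads alike on both strands, was present in 7 of 37 (18.9%): Ltv1, Mybbp1a, Nop2, Pes1, Tsr1, Utp20 and Wdr43. It was present in 11.9% of 9573 tested genes with a promoter and in 8.09% of all 27018 genes in the table. All 7 had a fitted change below 0, from -0.21 for Nop2 to -0.022 for Ltv1, as did 34 of all 43. The YY1 motif AANATGGCG, searched on both strands, was present in 2 of 37 (5.41%), Nob1 and Utp20, against 6.16% of tested genes. A match of letters is not a binding site, and the promoters of Noc2l, Noc3l and Polr1a held neither motif in this window.

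Shown here are the promoters of the E-box genes with the smallest unadjusted p, Nop2 and Mybbp1a, and that of Utp20, which holds both motifs and was picked for that after the search. The sequences run 5′ to 3′ along the gene, and capitals mark the motifs. Nop2 lies on the plus strand at chr6:125131633-125131932, with its E-box beginning at base -60 from the start. Mybbp1a lies on the plus strand at chr11:72441077-72441376, with the E-box beginning at base 41 after the start. Utp20, which encodes a small subunit scaffold, lies on the minus strand at chr10:88826765-88827064, with the YY1 motif beginning at base 9 and the E-box at base 38 after the start.
Nop2: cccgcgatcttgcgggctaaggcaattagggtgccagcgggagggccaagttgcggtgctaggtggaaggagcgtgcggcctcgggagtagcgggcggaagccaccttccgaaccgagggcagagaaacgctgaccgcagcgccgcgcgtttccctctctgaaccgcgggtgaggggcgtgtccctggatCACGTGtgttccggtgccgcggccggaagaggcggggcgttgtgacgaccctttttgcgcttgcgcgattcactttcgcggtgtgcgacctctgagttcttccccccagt
Mybbp1a: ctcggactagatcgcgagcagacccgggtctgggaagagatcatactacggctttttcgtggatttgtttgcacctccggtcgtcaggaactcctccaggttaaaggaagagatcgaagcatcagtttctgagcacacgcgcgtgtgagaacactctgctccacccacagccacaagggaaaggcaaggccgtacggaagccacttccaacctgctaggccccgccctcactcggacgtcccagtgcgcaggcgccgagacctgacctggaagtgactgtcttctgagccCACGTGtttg
Utp20: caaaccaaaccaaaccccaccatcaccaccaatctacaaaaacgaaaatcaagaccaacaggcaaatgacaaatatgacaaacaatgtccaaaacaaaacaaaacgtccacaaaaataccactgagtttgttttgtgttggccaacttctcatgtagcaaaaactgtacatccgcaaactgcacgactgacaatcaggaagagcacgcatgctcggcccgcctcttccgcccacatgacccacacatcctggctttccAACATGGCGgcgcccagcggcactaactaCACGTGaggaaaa
Beside these sequences, Utp20 stood at 22.7, 30.7 and 26.5 CPM in YY1 siRNA samples 4, 5 and 6, against 29.4, 27.7 and 28.9 CPM in control siRNA samples 1, 2 and 3. The highest and the lowest library of Utp20 were both YY1 siRNA samples (log2 fold change -0.11, edgeR adjusted p 0.704). Nob1, the other gene with the YY1 letters, had 21.9, 17.4 and 19.3 CPM in YY1 siRNA samples, against 20.9, 22.9 and 19.6 CPM in control siRNA samples, and overlapped too.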

How the data were processed

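RNA of 3 YY1 siRNA and 3 control siRNA samples was analysed from tables of raw read counts per gene symbol that the authors deposited, whole numbers with unequal totals. The submitters' processing notes name STAR 2.6.1a, edgeR 3.30.0 and the mm10 build. No source used here gives the counting program, annotation or strand setting, and 12 of the 43 loci overlap a protein-coding gene on the other strand. The 2 rows that name no gene (7.87% to 11.3% and 1.01% to 1.15% of counts) were left out. Genes were tested with edgeR 4.0.16 in R 4.3.3 (quasi-likelihood F test) with filterByExpr, TMM factors and robust dispersion, two-sided, adjusted by Benjamini and Hochberg over 12148 genes, and checked on simulated counts. Levels are TMM-normalised CPM, counts scaled to library size. At these depths 3 counts equal 0.145 to 0.191 CPM. Alternatives used DESeq2 1.42.0, limma 3.58.1, mgcv 1.9.3 for length and GC offsets, other filters and size factors, a covariate, and leaving out each sample. Gene models were GENCODE M21 (mm10), matched to 98.3% of symbols. The members and lists were chosen with earlier results of these data known. Named genes are Myc, members with an unadjusted p under 0.05, the 3 highest and 3 lowest changes, the most abundant per length in each role, the polymerase I subunits, at least 1 more per role, and up to 4 genes of each other list. Other members and genes named, the division by exon length and the values of overlapping neighbours were chosen after the values were seen.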

Additional observations from a re-analysis of the deposited data

Results flagged for a closer look

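Counts that fell in no gene made up 10.7% of all counts in sample 5 of the YY1 siRNA group and 11.3% in sample 6. The reported fit does not use these counts, which enter only as a covariate in one alternative, and each control siRNA sample lay lower, at 9.03% or less. Sample 4 of the YY1 siRNA group was at 7.87%. The median levels of the 42 biogenesis genes were -0.022, -0.032 and -0.11 in YY1 siRNA samples 4, 5 and 6, and the part of the no-gene share in them was not tested.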

How the results depend on the processing

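No paired analysis was possible because samples 4 to 6 and samples 1 to 3 have no number in common. Members past the adjusted threshold numbered 0 under all 9 other settings and without each sample in turn. Yy1 passed in all of them (log2 fold change -0.71 to -0.65, and -0.70 to -0.67 without each sample), and Myc in none (-0.14 to -0.058, and -0.16 to -0.052 without each sample). The number of members lower at an unadjusted p under 0.05 was 5 to 7 under the other settings (4.31% to 6.68% of all genes lower in those fits), except 3 with DESeq2 (2.16% of all genes), and 1 to 10 without each sample (2.83% to 8.42% of all genes). Members higher at such a p numbered 0 under every other setting, and 0 to 1 without each sample. Among all genes the number higher was 351 to 869 under the other settings (11633 to 17048 tested). It was 315 to 1304 without each sample (12225 to 12239 tested). The median log2 fold change of the members was -0.13 to -0.074 under the other settings and -0.13 to -0.085 without each sample. Changed genes among all tested, 1 in the reported fit, numbered 7 with library size alone, 83 without a filter on low counts, 19 with DESeq2, 12 with length and GC offsets, and 1 to 41 when one sample was left out (41 for YY1 siRNA sample 4, 3 for YY1 siRNA sample 6, 2 for control siRNA sample 3). Signs were compared gene by gene only for the members that the naming rule picks, and other members turned too. Among those compared, signs turned with the no-gene covariate for Polr1c (-0.043), Nop56 (-0.0025), Rrp1 (0.058) and Nip7 (-0.13). They turned with length and GC offsets for Npm1 (-0.038) and Rrp1 (0.014). Without YY1 siRNA sample 6 they turned for 6 of these genes, whose range over the samples left out was -0.080 to 0.17 for Polr1c, -0.013 to 0.16 for Nop56, -0.041 to 0.28 for Nop10, -0.0092 to 0.11 for Npm1, -0.072 to 0.022 for Rrp1 and -0.070 to 0.30 for Nip7. None of these genes passed the test in any setting, and the cause was not tested. Depth limits Rrp12 most, at 35 to 70 reads per library.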
